A study of Mus musculus with 2 samples.

Results

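Receptors first described on natural killer (NK) cells were examined in invariant NKT cells, set against conventional CD4 T cells. The 8 genes considered were Klre1, Klrd1, Klrb1c, Klrk1, Cd226, Cd160, Klrg1 and Klrc1, and their probes were taken by the gene symbol in the platform annotation. Of these genes, 7 had a probe, with 11 probes in all among the 11866 of the deposited value table, while Klrc1 had no probe there and was not analysed here. The groups were type 1 invariant NKT cells and conventional CD4 T cells, both from lymph nodes of mice labelled female and raised pathogen free, with 1 Illumina bead array for each group. The cells had been isolated by magnetic or fluorescence sorting, and the labels used here give no strain, age, genotype or number of pooled animals. With 1 array per group no value has a replicate, so no test between the groups could be made, and every difference below describes these 2 arrays. In sorted cells measured in bulk, fewer cells carrying a transcript and less of it per cell cannot be told apart.

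NK cells weigh signals from activating and inhibitory surface receptors, and many of these receptors are lectin-like proteins encoded side by side in the natural killer gene complex. Activating receptors such as NKG2D, the product of Klrk1, signal through small adaptor proteins, whereas inhibitory receptors such as KLRG1 carry a motif in their own tail that recruits phosphatases. Invariant NKT cells are T cells whose receptor of restricted diversity recognises lipids on CD1d, and NK1.1, the product of Klrb1c, is a classical surface marker of mature invariant NKT cells in mouse strains that carry the antigen.

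The labels and the 2 deposited tables conflict in places, and values that show it come first. Cd8b1, a chain of the CD8 co-receptor on cytotoxic T cells, reached a log2 signal of 9.33 in the NKT-labelled library and 15.60 in the CD4-labelled library, and Cd4 differed by -0.61. The Y-linked gene Kdm5d had 7.61 in the NKT-labelled library, where it was not detected, and 9.46 in the CD4-labelled library, although both samples were labelled female. Eif2s3y, also Y-linked, was detected in both, at 8.998 in the NKT-labelled library and 11.55 in the CD4-labelled library. Each group is therefore called by its label, as the NKT-labelled and the CD4-labelled library. The value table's column for invariant NKT cells also did not follow its counterpart in the non-normalized table (Spearman's rho 0.822 across probes, which are not independent), whereas the column for conventional CD4 T cells did (rho 1). The 2 columns of the value table had a rho of 0.823 with each other. The invariant NKT column was thus no closer to its own counterpart than to the other cell type. In the non-normalized table the log2 ratios of the 11 probes, invariant NKT over conventional CD4 T, lay between -0.17 and 0.13, and 0 probes of the whole table were 2-fold apart. All differences below rest on the value table, since its columns carry the sample names. Which of the tables is right for that sample was not tested.

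The NKT-labelled library was brighter by 2-fold or more at 9 of the 11 NK receptor probes, and dimmer by 2-fold or more at 0. Over all 10531 probes detected in 1 or both libraries, 10.7% were higher and 10.8% were lower by the same rule. Taken by the brightest probe of each gene, 6 of the 7 genes were higher, against 10.2% of the 7272 genes detected, and 11.1% of genes were lower. The median log2 difference, invariant NKT minus conventional CD4 T, was 3.17 over the 11 probes and -0.04 over all detected probes. The detection level, a log2 signal of 7.83, is the lowest value with a detection p under 0.01 on the array of conventional CD4 T cells. All 11 probes reached it in the NKT-labelled library, and 6 of them reached it only there. A probe seen in 1 library can differ in only 1 direction, so these counts are a description. For such probes the fold is given as a lower bound against the detection level.

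**Figure D1:**
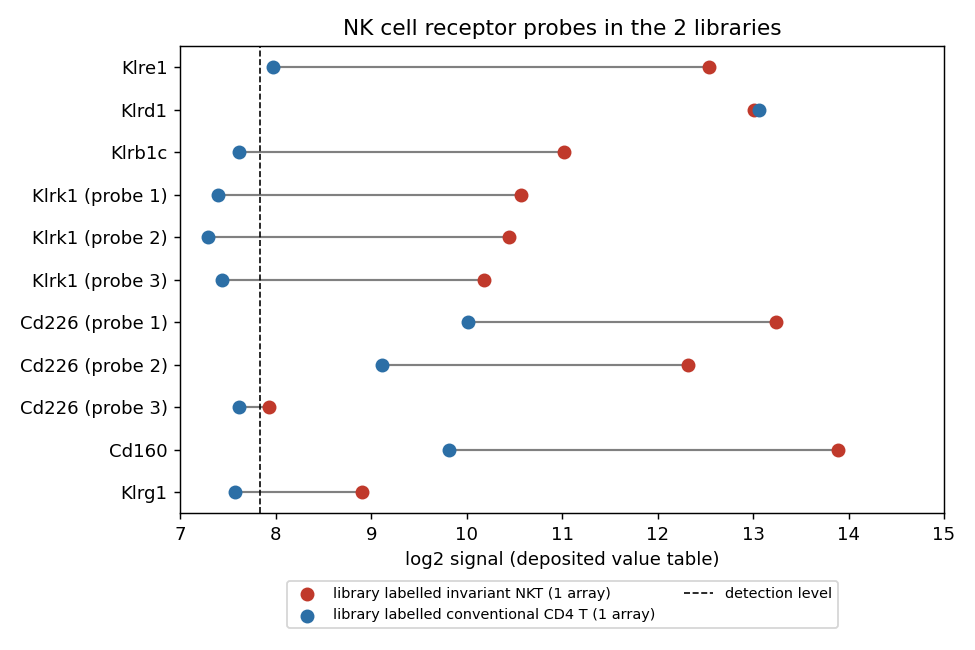
Log2 signals of the 11 NK receptor probes (rows) in the NKT-labelled library (red) and the CD4-labelled library (blue), 1 array each, with the detection level of 7.83 dashed. The red points lie far right of the blue ones for 8 probes and close to them for Klrd1 and the third probe of Cd226, with Klrg1 between.

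Klre1 and Klrd1 encode chains that work in pairs. In mice KLRE1 joins either the inhibitory KLRI1 or the activating KLRI2, so its effect depends on the partner. The Klre1 probe (ILMN_1239346) had a log2 signal of 12.54 in the NKT-labelled library, against 7.97 in the CD4-labelled library. The value of the CD4-labelled library lies just above the detection level. The difference of 4.58, or 23.9-fold, ranked 19 from the top among the 10531 detected probes. Klri1, the partner gene with a probe on the table, had 7.59 in the NKT-labelled library, below the detection level, and 7.86 in the CD4-labelled library.

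Klrd1 was the exception among the 7 genes. It encodes CD94, which pairs with NKG2 chains to bind the nonclassical MHC molecule Qa-1. Its probe (ILMN_1255860) had 13.01 in the NKT-labelled library and 13.06 in the CD4-labelled library, a difference of -0.05. Both values lay far above the detection level, and with 1 array each a smaller difference between the cell types cannot be judged. H2-T23, which encodes Qa-1, had 14.39 in the NKT-labelled library and 13.94 in the CD4-labelled library. The genes of the NKG2 chains that pair with CD94 were not analysed here, since none of Klrc1, Klrc2 and Klrc3 had a probe on the value table.

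The activating receptors Klrb1c, Klrk1 and Cd226 were all higher, at 6 of their 7 probes. Klrb1c (ILMN_2952650), which encodes NK1.1, had 11.01 in the NKT-labelled library and 7.61, below the detection level, in the CD4-labelled library. It was thus at least 9.07-fold higher, and its measured difference was 3.40.

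Klrk1 encodes NKG2D, a receptor for stress-induced ligands of the RAE-1, H60 and MULT1 families, and it was measured by 3 probes. They had 10.57, 10.45 and 10.18 in the NKT-labelled library, against 7.40, 7.29 and 7.44 in the CD4-labelled library, where all 3 lay below the detection level. The bounds were at least 6.65-fold, 6.11-fold and 5.08-fold higher. The measured differences of 3.17, 3.16 and 2.74 were all taken against undetected values. Over the 1903 genes with more than 1 detected probe, the differences of a gene's 2 brightest probes had a within-gene SD of 0.60. That SD is the one measure of error here, and it leaves out variation between animals, sorts and arrays.

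Cd226 encodes DNAM-1, an adhesion receptor for CD155 and CD112 that promotes killing and T cell activation. Its brightest probe (ILMN_1239753) had 13.24 in the NKT-labelled library, against 10.01 in the CD4-labelled library. The second (ILMN_3071525) had 12.32 in the NKT-labelled library, against 9.11 in the CD4-labelled library. These probes, detected in both libraries, gave 9.35-fold and 9.25-fold higher signal. The third (ILMN_3150302) disagreed. It had 7.93 in the NKT-labelled library and 7.62 in the CD4-labelled library, a difference of 0.31, with the higher value barely above the detection level. RefSeq lists 7 transcripts for Cd226. Which of them each probe covers was not tested.

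Cd160 encodes a receptor anchored by a lipid tail that binds the TNF receptor family member HVEM, and it has been described as costimulatory or inhibitory depending on the cell. Its probe (ILMN_2707181) had 13.89 in the NKT-labelled library, against 9.82 in the CD4-labelled library. It was detected in both, and the difference of 4.07, or 16.8-fold, ranked 29 from the top.

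Klrg1 was the single inhibitory receptor of the set that could be measured. It binds cadherins and marks terminally differentiated effector cells. Its probe (ILMN_2944755) had 8.90 in the NKT-labelled library, against 7.57, below the detection level, in the CD4-labelled library. It was at least 2.10-fold higher, with a measured difference of 1.34. With 1 inhibitory probe against 7 activating ones, differences of the 2 classes were not compared. Cdh1, which encodes its ligand E-cadherin, was below the detection level in the NKT-labelled library, at 7.63, and had 7.90 in the CD4-labelled library.

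**Figure D2:**
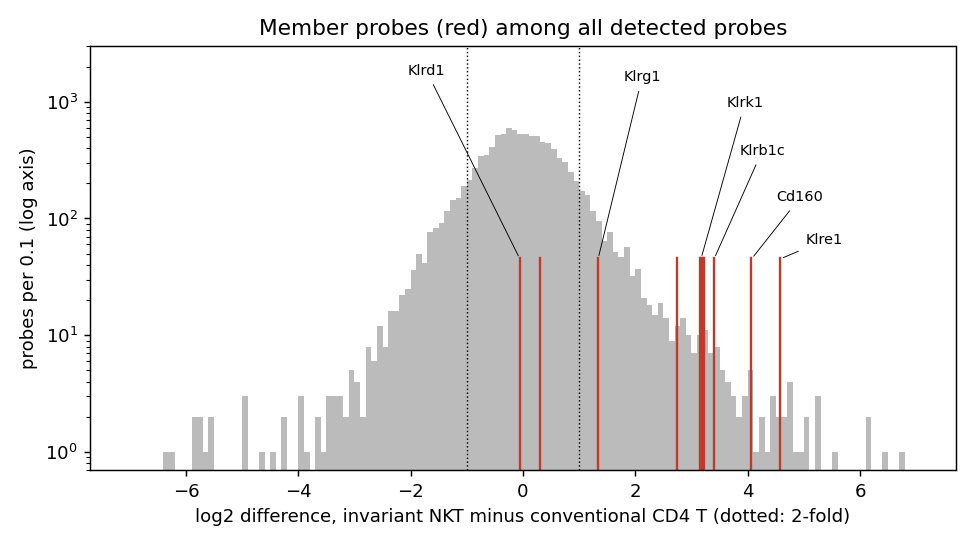
Number of detected probes (log axis) per 0.1 of log2 difference, invariant NKT minus conventional CD4 T (1 array each), with the 11 NK receptor probes as red lines and 2-fold dotted. The red lines run from -0.05 for Klrd1 to 4.58 for Klre1, and 8 of the 11 lie above 2.7.

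The values still hold unsubtracted background, which shrinks the differences of dim probes most. After subtraction of the median undetected signal, with a floor, the difference of Klre1 became 5.98, against 4.58 without it, so its 23.9-fold depends on how background is treated. Cd160 became 4.33, the brighter probes of Cd226 became 3.44 and 3.65, and Klrd1 became -0.06. The other 6 probes were undetected in the CD4-labelled library, so their subtracted differences are no measurements there. For the 3 probes of Klrk1 they are set by the floor.

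Promoter sequences of 5 of the 8 genes were taken from the RefSeq table, each running from 250 bases before to 50 bases after a transcription start. They are shown for the 4 of these genes that were higher, as sequence at the starts of genes that were all higher. Where the table lists several starts, the one listed first is given. Capitals mark 3 motifs found on either strand, the T-box half-site TCACAC (reverse GTGTGA), the RUNX core TGTGGT (reverse ACCACA) and the AP-1 site TGANTCA. T-box and RUNX factors are known regulators of effector T cell and NK cell genes. Tbx21, which encodes the T-box factor T-bet, had 11.99 in the NKT-labelled library and 8.61 in the CD4-labelled library. Eomes, another T-box gene, went the other way, with 6.89, below the detection level, in the NKT-labelled library and 8.59 in the CD4-labelled library. At its bound Eomes differed by -0.75, less than 2-fold. Whether either factor acts on these genes was not tested.
Klre1 (GRCm38.p6, chr6:129577963-129578262, + strand): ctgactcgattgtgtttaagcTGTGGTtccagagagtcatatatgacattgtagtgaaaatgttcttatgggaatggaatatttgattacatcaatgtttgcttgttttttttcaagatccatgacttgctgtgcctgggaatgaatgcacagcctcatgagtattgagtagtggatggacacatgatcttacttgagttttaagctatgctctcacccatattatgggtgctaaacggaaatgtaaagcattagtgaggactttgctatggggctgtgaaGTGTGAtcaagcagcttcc
Klrb1c (GRCm38.p6, chr6:128788592-128788891, - strand): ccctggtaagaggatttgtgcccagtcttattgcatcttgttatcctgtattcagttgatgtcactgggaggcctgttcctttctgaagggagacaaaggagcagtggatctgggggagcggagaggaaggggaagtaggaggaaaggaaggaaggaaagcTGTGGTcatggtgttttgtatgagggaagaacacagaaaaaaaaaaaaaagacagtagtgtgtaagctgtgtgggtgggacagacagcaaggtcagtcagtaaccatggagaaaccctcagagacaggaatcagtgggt
Klrk1 (GRCm38.p6, chr6:129623815-129624114, - strand): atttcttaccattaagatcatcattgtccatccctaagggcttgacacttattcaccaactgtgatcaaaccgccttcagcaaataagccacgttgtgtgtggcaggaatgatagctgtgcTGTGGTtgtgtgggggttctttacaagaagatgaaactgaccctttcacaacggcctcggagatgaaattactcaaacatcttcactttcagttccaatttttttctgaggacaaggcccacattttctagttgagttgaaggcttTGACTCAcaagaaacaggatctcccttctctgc
Cd160 (GRCm38.p6, chr3:96829302-96829601, - strand): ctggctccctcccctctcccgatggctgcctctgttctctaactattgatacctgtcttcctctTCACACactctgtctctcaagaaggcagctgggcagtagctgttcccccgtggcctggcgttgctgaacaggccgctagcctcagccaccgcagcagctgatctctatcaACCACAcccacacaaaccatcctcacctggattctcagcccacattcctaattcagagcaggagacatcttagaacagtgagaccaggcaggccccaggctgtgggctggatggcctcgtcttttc
The RUNX core occurred 1 time in each of these 4 windows, and in 16.8% of all 32851 promoter windows of the same length. The 4 windows do not cover all the higher receptor genes, since Cd226 and Klrg1 were also higher and have none here. The T-box half-site occurred 1 time in the windows of Klre1 and Cd160, against 14.5% of all windows, and the AP-1 site 1 time in that of Klrk1, against 7.81%. The second start listed for Cd160 held 1 RUNX core and 1 T-box half-site, that of Klre1 lacked the RUNX core, and the promoter of Klrc1, which had no probe, held 1. No 2 of the motif matches overlap. A match is a run of letters and does not show that a factor binds there. Klrd1, Klrg1 and Cd226 have no window here, so motifs at their starts were not examined. For Cd226 this does not mean that the RefSeq table lacks a start.

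Most Klr genes lie together on chromosome 6, and 11 of those in the natural killer gene complex had a probe. The Klr probes of the complex differed among themselves. Of 14 probes, 13 were detected, 9 were higher by 2-fold or more, 0 were lower and 4 differed by less than 2-fold. Over all detected probes, 10.7% were higher and 10.8% were lower. The 9 include the probes of Klre1, Klrb1c and Klrk1 already counted above. Among the 7 detected probes of the other Klr genes, 4 were higher and 0 were lower. Klre1, Klrd1 and Klrk1 are direct neighbours in the RefSeq order of protein-coding genes. The outer genes of this trio differed by 4.58 and 3.17, while Klrd1 between them differed by -0.05.

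Of the 7 other Klr genes in the complex, Klra1, which encodes the inhibitory MHC class I receptor Ly49A, had 10.16 in the NKT-labelled library and 7.26, below the detection level, in the CD4-labelled library, a bound of 2.32 on the log2 scale. Klrb1f, a relative of Klrb1c, had 10.38 in the NKT-labelled library and 7.67, below the detection level, in the CD4-labelled library, at least 5.82-fold higher. Klra10, another Ly49 gene, had 9.35 in the NKT-labelled library and 7.90 in the CD4-labelled library. Both probes of Klrb1b, an inhibitory relative of Klrb1c, were detected in the NKT-labelled library alone, with measured differences of 1.36 and 0.63. Their bounds were 1.56-fold and 1.08-fold, under 2-fold for both. Klra7, the gene of Ly49G, differed by 0.30, and Klra4, the gene of Ly49D, lay below the detection level in both libraries.

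Klr genes are related in sequence, the Ly49 genes closely so, and a probe may pick up transcripts of a neighbour. The probe sequences were not used here, so cross-hybridisation was not tested. The measured differences of the detected Klr probes in the complex ran from -0.27 for Klri1 to 4.58 for Klre1. All 3 probes of Klrk1 were higher, each with a bound alone, while Klre1, Klrb1c, Klrd1 and Klrg1 rest on 1 probe each.

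**Figure D3:**
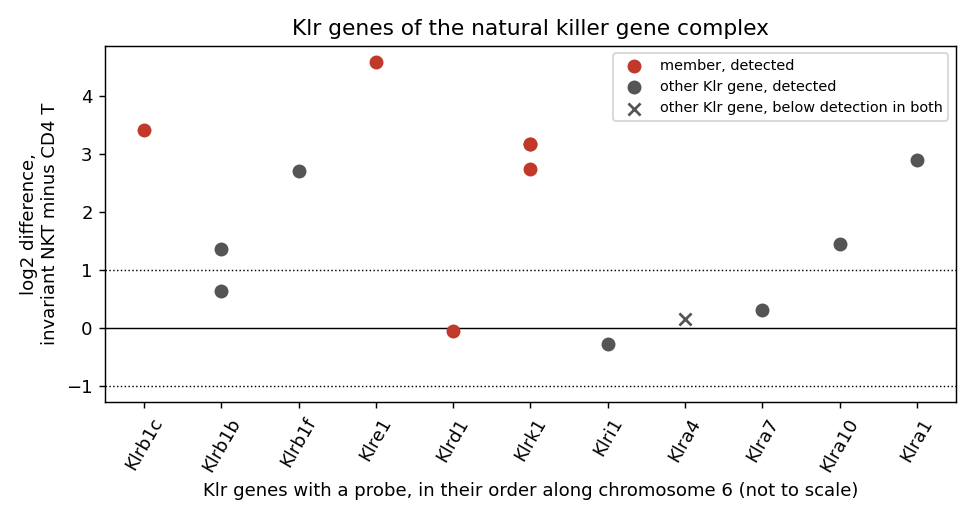
Log2 difference, invariant NKT minus conventional CD4 T (1 array each), for each probe of the 11 Klr genes of the natural killer gene complex, in their order along chromosome 6. Klrd1, at -0.05, sits between Klre1 at 4.58 and Klrk1 at 2.74 to 3.17.

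Related genes were read the same way, from lists. Of 16 other activating NK receptors listed, 6 had a probe and 4 were detected, with 3 higher by 2-fold or more and 1 lower, with a median of 1.73. Klra16, a Ly49 gene, was at least 2.35-fold higher in the NKT-labelled library. Slamf7, a SLAM family receptor of NK cells, had 9.63 in the NKT-labelled library and 7.60, below the detection level, in the CD4-labelled library. Crtam, a receptor of activated NK and cytotoxic T cells, differed by -1.24, but its value in the NKT-labelled library lay below the detection level. Of 27 other inhibitory receptors, 7 had a probe and 6 were detected, of which 3 were higher and 1 was lower, with a median of 0.83. The lower one was Lag3, a receptor for MHC class II, at -1.44, also below the detection level in the NKT-labelled library. At their bounds Crtam and Lag3 differed by -0.63 and -0.70, less than 2-fold. Over all 7272 detected genes the median was -0.07, with 10.2% higher and 11.1% lower by 2-fold or more.

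Most adaptors and proximal signalling genes on the list lay within 2-fold between the libraries, as did most detected genes of the array. Of 20 detected genes of this list, 3 were higher by 2-fold or more, 3 were lower and 14 were neither, with a median of 0.37. Over all detected genes, 10.2% were higher and 11.1% were lower. Hcst, which encodes DAP10, the adaptor of NKG2D, had 13.91 in the NKT-labelled library and 13.44 in the CD4-labelled library. Tyrobp, which encodes DAP12, had 8.28 in the NKT-labelled library and 7.36, below the detection level, in the CD4-labelled library. Fcer1g, the gene of the Fc receptor gamma chain through which NK1.1 signals, had 10.95 in the NKT-labelled library, against 8.12 in the CD4-labelled library, 7.11-fold higher. The exchange factor gene Vav3 differed by 1.40 and the kinase subunit gene Pik3r1 by 1.06. Lat, the scaffold of T cell receptor signalling, differed by -2.51 and Vav1 by -1.11, and the integrin gene Itgb2 lay just past 2-fold lower.

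Of 8 detected genes of ligands and related molecules, 2 were higher and 1 was lower, with a median of 0.59. Among all detected genes, 10.2% were higher and 11.1% were lower. Clec2d, which encodes the ligand of the inhibitory KLRB1B, had 12.80 in the NKT-labelled library and 11.44 in the CD4-labelled library. Cd1d1, which presents lipids to the invariant T cell receptor and binds none of the receptors above, was at least 4.59-fold higher. The MHC class I gene H2-D1 differed by -1.02, and Pvr, which encodes the DNAM-1 ligand CD155, by 0.74.

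**Figure D4:**
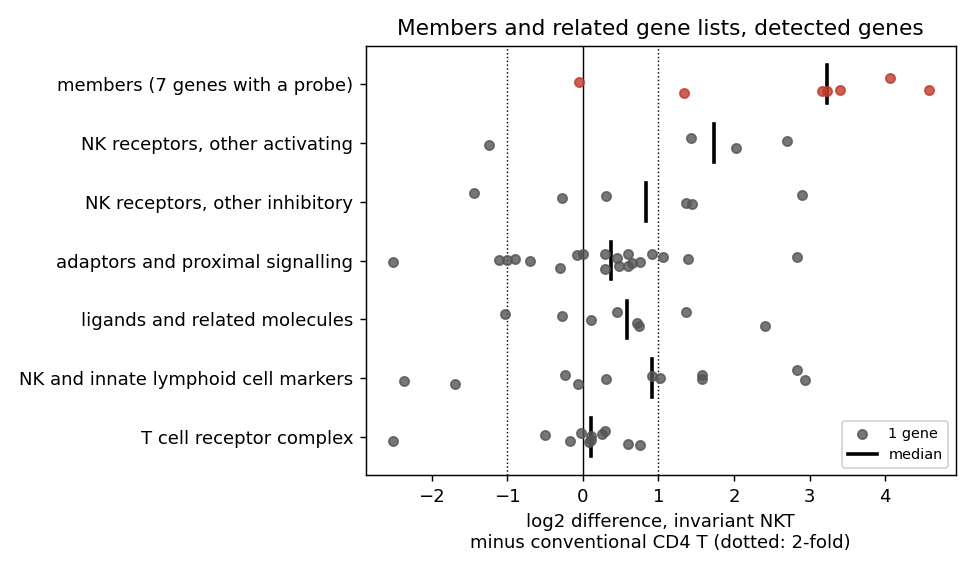
Log2 difference, invariant NKT minus conventional CD4 T (1 array each), of the 7 NK receptor genes (red) and of detected genes of 6 related lists (grey), with each list's median as a black bar and 2-fold dotted. The median is 3.22 for the 7 genes, and the medians of the other lists lie between 0.10 and 1.73.

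Markers of other cells were read beside these values. Of 26 NK and innate lymphoid cell markers, 13 had a probe and 11 were detected. Of these 11 markers, 5 were higher and 2 were lower, against 10.2% and 11.1% of all detected genes, with a median of 0.92. Their signals ran from 6.89 to 15.53 in the NKT-labelled library and from 7.36 to 13.95 in the CD4-labelled library. Eomes, which encodes a transcription factor of NK cells, was below the detection level in the NKT-labelled library, at 6.89, and had 8.59 in the CD4-labelled library. Its bound was -0.75, less than 2-fold, so at the bounds 1 marker was lower, Il7r at -2.37. Itga2 and Klra4 were below the detection level in both libraries, the perforin gene Prf1 differed by -0.24, and Ncr1 had no probe on the table. Nfil3 and Fcer1g differed by 2.93 and 2.83, and Nkg7, a granule protein gene of NK and cytotoxic T cells, by 1.58.

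Over 11 detected genes of the T cell receptor complex the median was 0.10, with 0.11 for Cd3e, and Lat was the 1 gene of 11 that was 2-fold apart. Of 13 invariant NKT markers, 12 were higher, with a median of 2.08. Among all detected genes, 10.2% were higher and 11.1% were lower by the same rule. The lists were chosen with earlier results of these data known, so their counts are a description. Markers of other tissues were higher too, with 4 of 4 detected red cell genes (median 4.19) and 8 of 10 hepatocyte genes (median 1.79) past 2-fold. All 10 hepatocyte genes were detected in the NKT-labelled library and 0 in the CD4-labelled library, although both samples were labelled as from lymph nodes. The globin gene Hba-a1 had 16.04 in the NKT-labelled library and 9.84 in the CD4-labelled library. The 5 of 7 detected monocyte and neutrophil genes that were higher (list median 1.39) included S100a8, at 3.28, and Ctss, a protease gene of the same list, was lower at -1.19. In the other direction, 4 of 6 CD8 T cell markers (median -1.47) and 1 of 3 B cell markers (median -0.61), Cd79b, were lower, while Cd79a differed by -0.46. At their bounds 2 of the 6 CD8 T cell markers, Cd8b1 and Itgae, were lower, and Nkg7 of the same list was higher, while 7 hepatocyte genes and 4 monocyte and neutrophil genes were higher. Medians of 6 of the 12 lists were 1 or more in size. The part of such cells in the NK receptor differences was not tested.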

How the data were processed

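RNA of 2 sorted T cell populations was measured on Illumina mouse bead arrays, which per the submitters' processing notes were read with GenomeStudio 2009.2. Per the file headers, the authors' non-normalized table, as deposited, pairs the intensity of each of 25697 probes with a detection p-value, and 2 lines of annotation text there were left out. The authors also deposited a value table of log2 signals for 11866 probes, whose sorted columns agree within 0.00025, as quantile normalisation leaves them. Its normalisation and filter are not given in the sources used here. No column of the tables was left without a sample.

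The detection level, 7.83, is the lowest value-table signal with a detection p under 0.01 in the first non-normalized column. It was applied to both libraries, and is an estimate for invariant NKT cells. The log2 difference of each probe was computed in Python 3.11.15. A probe counted as higher or lower at 2-fold or more if its brighter value reached the level, a rule checked on simulated data. The simulated shifts were larger than the rule asks, with little noise, in probes well above the level. The check therefore does not cover calls on dim probes. For a gene, the probe with the highest mean signal was used. A bound sets the bright value against the detection level or the dim value, whichever is higher. Alternatives were neqc of limma 3.58.1 (R 4.3.3, offset 16) on the non-normalized intensities, background subtraction with a linear floor of 16, a detection p of 0.05, no filter, folds of 1.5 and 4, and probe means. All receptor probes are named, and of each list up to 5 genes in each direction by size, with defining markers whatever their values; of these the text gives a part. The genes and lists were chosen with earlier results of these data known, and the promoter motifs and the Y-linked genes after values were seen. Precision is limited by 1 array per group.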

Additional observations from a re-analysis of the deposited data

How the results depend on the processing

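With the non-normalized table processed by neqc, 0 of the 11 NK receptor probes and 0 of the 7 genes were 2-fold or more higher, the median difference of the probes was -0.035, 1 probe of all was higher and 2 were lower, and 0 of the 11 lists with a value had a median of 1 or more in size. Before that processing 0 probes of the table were 2-fold apart, so small differences were largely fixed in advance and their signs are not read as results. The probes of Klrb1c, Klrk1 and Klrg1 and ILMN_3150302 also had a detection p above 0.01 in both columns there. Under it 2 Klrk1 probes differed by -0.10 and -0.17, Klrg1 by -0.035 and the Cd226 probes ILMN_3071525 and ILMN_3150302 by -0.12 and -0.53, all opposite in sign to the value table. The other Klrk1 probe (0.20), Klre1 (0.22), Klrb1c (0.07), Cd160 (0.0086), the brightest Cd226 probe (0.0010) and Klrd1 (-0.08) kept their sign, and the medians of other activating receptors and of monocyte and neutrophil markers were -0.042 and -0.068. Hepatocyte markers gave no value there, as none was detected. The 2 tables hold different signals for the invariant NKT sample, and the cause was not tested. With background subtracted the median of the probes was 4.33, 10 probes were higher, and 2167 and 2261 of all probes were higher and lower. That median and the 10 include the 6 probes undetected in the CD4-labelled library, whose subtracted differences are no measurements. ILMN_3150302, at 1.15, is among them. Folds of 1.5 and 4 gave 2285 and 261 probes higher and 2371 and 158 lower over the table, and 9 and 8 among the NK receptor probes. The mean of its 3 probes gave 2.25 for Cd226, lowered by the dimmest probe. A detection p of 0.05, no filter and bounds, the last added after the data were seen, left 9 NK receptor probes and 6 genes higher. At a detection p of 0.05 or without a filter, the median of other activating receptors was 0.80, since 2 dim genes then entered. The CD8 T cell marker median was -0.73 at the bounds. No paired analysis was possible because each group holds 1 array. Leaving out a replicate was not possible for the same reason.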
